A study of Mus musculus with 6 samples.

Results

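The 32 genes described here make the enzymes of sterol and fatty acid synthesis, the SREBP transcription factors that drive them, the proteins that hold SREBP back, and a sterol carrier. They were chosen by name from a list of 34 names that holds both the old and the current name of Sc4mol (now Msmo1) and of Sc5d. All 32 were found among the 19613 genes of the table. The list holds 6 enzymes of the mevalonate pathway (Acat2, Mvk, Pmvk, Mvd, Idi1 and Fdps), 11 enzymes of late sterol synthesis (Fdft1, Sqle, Lss, Cyp51, Tm7sf2, Sc4mol, Nsdhl, Hsd17b7, Ebp, Sc5d and Dhcr7), 9 enzymes of fatty acid synthesis (Acly, Acss2, Acaca, Fasn, Elovl6, Scd1, Scd2, Fads1 and Fads2), 5 regulators (Srebf1, Srebf2, Scap, Insig1 and Insig2) and the carrier Stard4.

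The data are 6 Affymetrix mouse exon arrays of embryoid bodies, which are cell aggregates grown from HBG3 mouse embryonic stem cells and directed towards spinal motor neurons. In these stem cells the motor neuron gene Hb9 (Mnx1) is marked by a fluorescent protein. All 6 arrays belong to 1 group, in which the cultures received blood fluid from mice of the strain B6CBA-Tg(HDexon1)62Gpb/3J, a model of Huntington's disease that carries the first exon of the human huntingtin gene. The labels call the fluid plasma, and the series title and the study's methods call it serum. Per the methods, the Huntington donors were male carriers of 10 weeks without symptoms, and an exposure of 24 h to 5% serum is described for the serum of the ALS model and its controls. The labels number the arrays as replicates 2, 4, 5, 6, 7 and 8 and do not tie them to donors or cultures. The study describes its Huntington set as a like number of serum samples, so the spread between arrays can include differences between sera as well as technical error. Control arrays were not analysed here, so no response to the fluid and no comparison between groups can be given, and the question taken up was which of these genes varied between the arrays, and which varied together.

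Replicate 8 stood apart from the other arrays. Its Pearson's r with them over all genes averaged 0.992, against 0.994 to 0.995 for each of the others, so results are given with and without it. Median intensities lay between 296 and 311. All 7 motor neuron markers examined (Mnx1, Isl1, Isl2, Lhx3, Lhx4, Chat and Slc5a7) were above background, where background is a mean log2 intensity of 7.47, the level under which 95% of 1032 olfactory receptor genes lay. Of the progenitor markers Pax6 was below it, and of 7 endoderm and liver markers 5 were (Afp, Alb, Ttr, Apob and Sox17). Embryoid bodies hold several cell types, so in these bulk RNA values fewer cells of a type and less RNA per cell cannot be told apart. The probes of different genes differ in brightness, so levels are compared between arrays and never between genes.

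Cholesterol and its precursors are built from acetyl-CoA. The mevalonate pathway turns acetyl-CoA into isoprenoid units, late sterol synthesis joins these into squalene, closes the rings and trims them to cholesterol, and fatty acid synthesis draws on the same pool of acetyl-CoA. SREBP proteins are made as precursors in the membrane of the endoplasmic reticulum. When sterols are scarce, Scap escorts them to the Golgi, where they are cut, and the released part enters the nucleus and activates genes of both pathways. When sterols are plentiful, the Insig proteins keep Scap in place. Insig1 is itself an SREBP target, which closes a feedback loop, and Srebf2 is best known for the sterol genes and Srebf1 for the fatty acid genes. Neurons and glia make their own cholesterol, since lipoproteins of the blood hardly cross into the brain.

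Promoters of 25 of the 32 genes, 33 in all because some genes have several starts, were matched in RefSeq sequences of GRCm38.p6. Fdps, Fdft1, Sqle, Stard4, Scd1, Scd2 and Fads1 were not matched. Each sequence runs from 250 bases before to 50 bases after the start of transcription, and 4 motifs were searched on both strands. They were TCACNCCAC, a form of the sterol regulatory element that SREBP binds, CCAAT, which is bound by the SREBP partner NF-Y, GGGCGG, the GC box of Sp1, and CACGTG, an E-box. No match of one motif in these promoters overlapped a match of another. The 6 promoters shown are those of Insig1 and Srebf2, the regulators that varied with the enzymes over all 6 arrays, of Idi1, the gene with the widest spread, of Ebp, the gene closest to Insig1 over the arrays, of Nsdhl, which held the most CCAAT matches among the late sterol genes, and of Acaca. The r of Acaca with the mean of the sterol enzymes was 0.861, or 0.729 without replicate 8. Its 1 matched window holds none of the 4 motifs, which says nothing of any other start of that gene. The sequences are written 5′ to 3′ on the strand of the gene, with matches to the last 3 of these motifs, or to their reverse complements, in capitals.
Insig1 (chr5:28071162-28071461, plus strand): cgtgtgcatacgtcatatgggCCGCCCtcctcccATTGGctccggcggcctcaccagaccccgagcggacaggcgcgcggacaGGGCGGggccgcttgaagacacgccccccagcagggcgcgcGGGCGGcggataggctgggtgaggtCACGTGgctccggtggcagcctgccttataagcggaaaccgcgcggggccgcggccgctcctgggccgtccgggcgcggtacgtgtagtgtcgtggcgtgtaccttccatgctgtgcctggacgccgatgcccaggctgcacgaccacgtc
Srebf2 (chr15:82147019-82147318, plus strand): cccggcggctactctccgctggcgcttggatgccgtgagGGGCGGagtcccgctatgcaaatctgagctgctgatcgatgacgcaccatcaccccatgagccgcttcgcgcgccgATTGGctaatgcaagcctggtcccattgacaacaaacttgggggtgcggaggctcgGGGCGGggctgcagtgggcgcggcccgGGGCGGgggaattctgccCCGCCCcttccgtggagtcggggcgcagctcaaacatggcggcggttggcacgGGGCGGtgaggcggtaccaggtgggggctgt
Idi1 (chr13:8885356-8885655, plus strand): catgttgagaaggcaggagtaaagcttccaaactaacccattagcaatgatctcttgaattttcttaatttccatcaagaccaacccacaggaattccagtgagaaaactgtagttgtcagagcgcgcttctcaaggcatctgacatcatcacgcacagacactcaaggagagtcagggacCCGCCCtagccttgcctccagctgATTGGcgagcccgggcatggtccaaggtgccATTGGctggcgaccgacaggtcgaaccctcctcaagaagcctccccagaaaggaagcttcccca
Ebp (chrX:8193463-8193762, minus strand): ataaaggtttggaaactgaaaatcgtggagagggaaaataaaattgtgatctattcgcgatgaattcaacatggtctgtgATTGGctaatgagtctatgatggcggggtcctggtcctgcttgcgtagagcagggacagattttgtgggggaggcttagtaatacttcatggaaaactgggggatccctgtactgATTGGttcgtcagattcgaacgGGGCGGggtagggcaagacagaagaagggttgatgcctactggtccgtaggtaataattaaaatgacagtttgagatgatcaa
Nsdhl (chrX:72918271-72918570, plus strand): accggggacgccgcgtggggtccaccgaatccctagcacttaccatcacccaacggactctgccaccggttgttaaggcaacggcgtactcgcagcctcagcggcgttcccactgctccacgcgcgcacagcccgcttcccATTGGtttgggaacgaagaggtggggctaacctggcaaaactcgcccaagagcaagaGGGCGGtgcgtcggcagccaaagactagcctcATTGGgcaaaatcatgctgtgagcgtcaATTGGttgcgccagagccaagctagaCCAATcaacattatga
Acaca (chr11:84195188-84195487, plus strand): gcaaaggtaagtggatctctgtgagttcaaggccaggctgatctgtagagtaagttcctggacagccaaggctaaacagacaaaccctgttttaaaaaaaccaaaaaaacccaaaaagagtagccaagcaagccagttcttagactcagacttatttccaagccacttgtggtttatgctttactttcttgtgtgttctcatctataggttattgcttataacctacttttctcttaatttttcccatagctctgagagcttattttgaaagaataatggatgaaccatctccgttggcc

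The letters TCACNCCAC were in none of the 33 promoters, and they were in 1.24% of all 32851 promoters of the same length. This says only that these letters are not in these windows. A gene was counted as holding a motif when any of its promoters did, so genes with several starts had more chances. CCAAT was found in 4 of the 5 mevalonate genes with a promoter, in 9 of 9 late sterol genes, in 3 of 6 fatty acid genes and in 4 of 5 regulators. It was in 37.4% of all promoters, 41.1% of all genes with a promoter and 43.0% of the genes above background. At least 2 matches were held by 3 of 5, 5 of 9, 1 of 6 and 1 of 5, against 16.4% of the genes above background. The CCAAT matches of Ebp began at positions -170 and -55 from the start, and those of Idi1 at -45 and -14. GGGCGG was in 4 of 5 mevalonate, 9 of 9 late sterol, 3 of 6 fatty acid genes and 5 of 5 regulators, against 68.8% of the genes above background. CACGTG was in 0 of 5 mevalonate, 3 of 9 late sterol and 0 of 6 fatty acid genes. Among the regulators 2 of 5 held it, Insig1 and Scap, and 11.4% of the genes above background did. These matches are descriptions of the sequence and were not tested as binding sites.

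All 32 genes were above background, as were 65.2% of the genes of the table. Replicate 4 had the lowest mean intensity of the mevalonate and late sterol enzymes. In it 18 of the 32 genes had their lowest value, against 10.8% of the genes above background. These 18 include 4 mevalonate and 8 late sterol enzymes that are part of that mean, so the count is partly fixed by the choice of array. In replicate 8, 19 of the 32 had their highest value, against 27.5%, and in replicate 7 another 10 did, against 12.3%. The same mean was highest in these arrays, so the same limit holds there. The remaining 3 genes were highest in replicate 5 (Sqle and Acss2) or replicate 6 (Fads1). The median SD of the 32 genes was 0.120 on the log2 scale, and that of all genes above background was 0.076. An SD over 0.2 was found for 7 of the 32 genes (Idi1, Fdft1, Insig1, Dhcr7, Fdps, Nsdhl and Scd1) and for 4.16% of the genes above background. Without replicate 8, only Fdps and Fdft1 passed, 2 of 32, against 2.17%. Scd1 at 0.201 and Nsdhl at 0.202 lay just above that limit, and Elovl6 at 0.181 and Acss2 at 0.178 just below it.

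**Figure D1:**
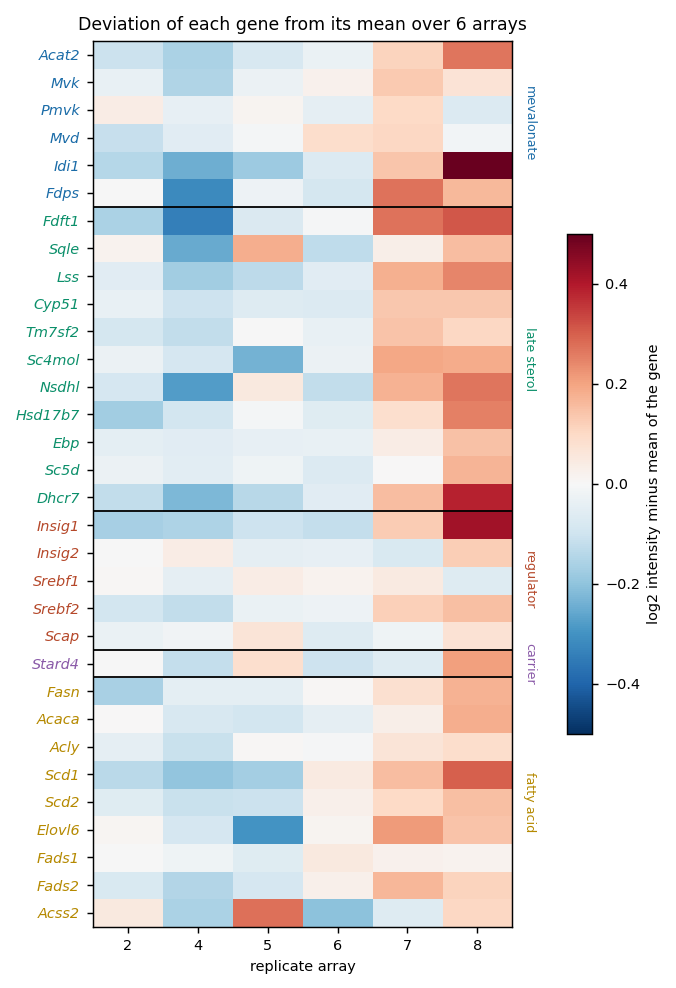
Deviation of the log2 intensity of each of the 32 genes (rows, grouped by branch) from its own mean over the 6 arrays (columns, by replicate number), with red above and blue below the mean. Replicates 7 and 8 are red for most enzymes, replicate 4 is blue, and Pmvk, Srebf1, Insig2, Fads1 and Acss2 show other patterns.

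Among the mevalonate enzymes, Idi1 and Fdps varied most, and both were low in replicate 4 and high in replicates 7 and 8. Idi1, the isomerase of the isoprenoid unit, had log2 intensities of 8.82, 8.72, 8.78, 8.90, 9.11 and 9.46 in replicates 2, 4, 5, 6, 7 and 8. Replicate 8 was highest by a wide margin and replicate 7 next, and the SD of 0.277 over the 6 arrays corresponds to a 1.67-fold range. Without replicate 8 the SD of Idi1 was 0.148. Fdps, which makes farnesyl diphosphate, measured 10.48, 10.16, 10.46, 10.39, 10.75 and 10.64 in the same order. Here replicate 7 was highest and replicate 4 lowest, a 1.51-fold range with an SD of 0.205 that was 0.212 without replicate 8. Acat2, which joins acetyl-CoA units, ranged from 9.64 to 10.06 with a median of 9.74, again from replicate 4 to replicate 8. Mvk, mevalonate kinase, spanned only 8.97 to 9.25 (SD 0.097, n = 6). The following kinase Pmvk and the decarboxylase Mvd stood outside this order, with SDs of 0.064 and 0.084. Pmvk was lowest, at 8.01, in replicate 8, where Idi1 was highest, and Mvd was lowest, at 8.38, in replicate 2.

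Late sterol synthesis had the widest spread of the 3 enzyme branches, with a median SD of 0.165 over its 11 genes, against 0.128 for the mevalonate and 0.117 for the fatty acid enzymes. Fdft1, squalene synthase, which commits the pathway to sterols, measured 11.09, 10.90, 11.17, 11.24, 11.52 and 11.55 in replicates 2, 4, 5, 6, 7 and 8. The values of replicates 7 and 8 lay above all others, and the SD of 0.252 fell only to 0.225 without replicate 8. Dhcr7, the reductase that yields cholesterol, measured 9.33, 9.23, 9.31, 9.39, 9.61 and 9.84, and its SD of 0.229 was 0.143 without replicate 8. Nsdhl, a dehydrogenase that helps remove methyl groups from the sterol, measured 10.51, 10.31, 10.64, 10.47, 10.76 and 10.86, and was thus lowest in replicate 4 and highest in replicate 8. Lss, which closes the ring system, ranged from 9.16 in replicate 4 to 9.58 in replicate 8 with a median of 9.28. Cyp51, the demethylase of lanosterol, and the sterol reductase Tm7sf2 ran from 10.01 to 10.25 and from 8.84 to 9.11, each lowest in replicate 4 and highest in replicate 7. Hsd17b7, a ketosteroid reductase, ran from 9.17 to 9.60, and the isomerase Ebp from 8.59 to 8.79 with the smallest SD of the branch (0.079). Sc5d, a desaturase, held between 9.77 and 9.84 in 5 arrays and reached 10.01 in replicate 8, so its SD of 0.086 was 0.028 without that array. Sc4mol, a methyl sterol oxidase, was lowest in replicate 5, at 9.33, and Sqle, squalene epoxidase, was highest there, at 10.52.

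Among the fatty acid enzymes the desaturase Scd1 varied most over all 6 arrays. It measured 9.57, 9.51, 9.54, 9.75, 9.86 and 10.01 in replicates 2, 4, 5, 6, 7 and 8, with the same low group of 3 arrays and the same high pair as Idi1 and Dhcr7. Its SD of 0.201 was 0.153 without replicate 8, and its range was 1.41-fold. Without that array Acss2 (SD 0.191) and Elovl6 (SD 0.186) varied more than Scd1. Scd2, the main stearoyl-CoA desaturase of brain, followed it at an r of 0.993 over the 6 arrays, although its own SD was 0.111. Fasn, fatty acid synthase, ran from 9.85 in replicate 2 to 10.19 in replicate 8, and Acaca, which makes malonyl-CoA for it, from 8.93 to 9.20. Acly, which supplies acetyl-CoA from citrate, kept within 10.95 and 11.14 (SD 0.072, n = 6), yet its order over the arrays was that of the sterol enzymes, at a rho of 1 with their mean. Fads2, a desaturase of polyunsaturated fatty acids, ran from 11.88 to 12.19, whereas its partner Fads1 barely moved, from 11.75 to 11.86, with the smallest SD of all 32 genes (0.039). Elovl6, which lengthens palmitate, was lowest in replicate 5, at 10.31, and highest in replicate 7, at 10.82. Acss2, which makes acetyl-CoA from acetate, was highest in replicate 5, at 9.26, and lowest in replicate 6, at 8.78.

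**Figure D2:**
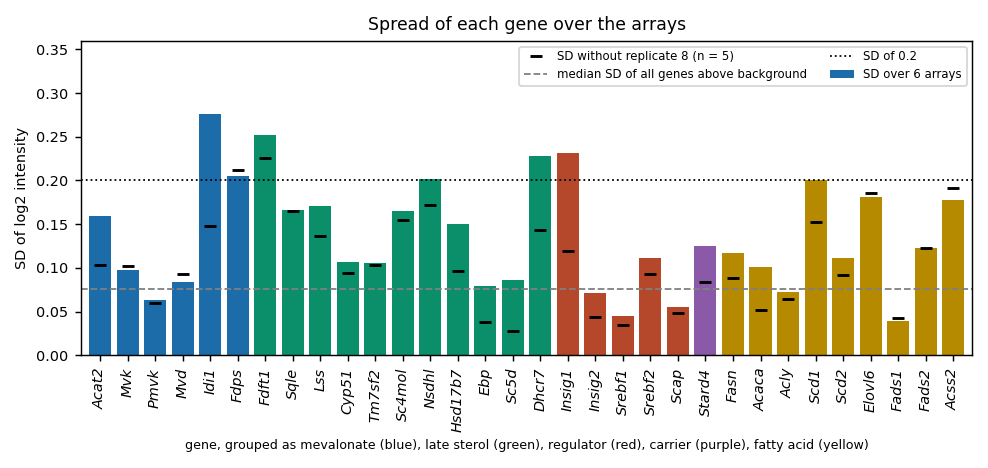
SD of the log2 intensity over 6 arrays (bars) and without replicate 8 (dashes) for each of the 32 genes, with the limit of 0.2 dotted and the median of all genes above background, 0.076, dashed. 7 bars pass 0.2, and without replicate 8 only Fdps and Fdft1 do.

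Over all 6 arrays the regulators split into a pair that followed the enzymes and 3 that did not. For Srebf1 this split rested on replicate 8, and without that array Insig2 ran against the enzymes, as the values further below show. Srebf2, the factor for sterol genes, measured 10.92, 10.88, 10.97, 10.98, 11.13 and 11.16 in replicates 2, 4, 5, 6, 7 and 8. It was highest in replicates 7 and 8 and lowest in replicate 4, as the enzymes were, over a 1.21-fold range. Insig1 measured 8.93, 8.94, 8.99, 8.97, 9.22 and 9.51. Replicates 2, 4, 5 and 6 lay between 8.93 and 8.99, replicate 7 was above them and replicate 8 higher again, a 1.498-fold range whose SD of 0.231 was 0.119 without replicate 8. Srebf1, the factor for fatty acid genes, measured 8.98, 8.93, 9.01, 8.99, 9.02 and 8.91, so replicate 8 was its lowest array and its SD was 0.044. Insig2, the form that is not itself a target of SREBP, measured 8.70, 8.74, 8.66, 8.66, 8.63 and 8.82, nearly the reverse of Srebf1, and the r between them of -0.964 was the lowest of the 10 pairs of regulators. Scap measured 9.93, 9.95, 10.03, 9.90, 9.95 and 10.04 and was highest in replicates 5 and 8. The SDs of Srebf1, Scap and Insig2, 0.044, 0.055 and 0.072, were all below the median of the genes above background. Stard4, which carries cholesterol through the cytosol, measured 7.999, 7.881, 8.087, 7.898, 7.934 and 8.205, and was high in replicates 2, 5 and 8 rather than in 7 and 8.

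The branches were next compared by how closely their members varied together, as the mean of Pearson's r over all pairs of genes in a branch. These values rest on 6 arrays that share a cell line, a kind of culture and a normalization, and are given as descriptions. Neither the mean r nor the counts of pairs were computed over pairs of all genes above background. How far they differ from those of other genes is therefore not known. For late sterol synthesis the mean r was 0.796 over 55 pairs, none of them negative, and 36 pairs reached 0.8. For the mevalonate enzymes it was 0.505 over 15 pairs, but 0.777 without replicate 8, the array in which Pmvk and Mvd parted from Idi1, and 0.260 without replicate 7, in which all 6 enzymes were above their mean. For the fatty acid enzymes it was 0.555 over 36 pairs, of which 6 were negative, and 0.463 without replicate 8. Over the pairs without Acss2, a choice made after its values were seen, the mean was 0.745. The 10 pairs of regulators averaged 0.135, and -0.01 without replicate 8. Pairs that cross branches were about as close as pairs within the mevalonate or fatty acid branch, at a mean r of 0.613 for mevalonate with late sterol enzymes, 0.535 for mevalonate with fatty acid enzymes and 0.665 for late sterol with fatty acid enzymes.

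**Figure D3:**
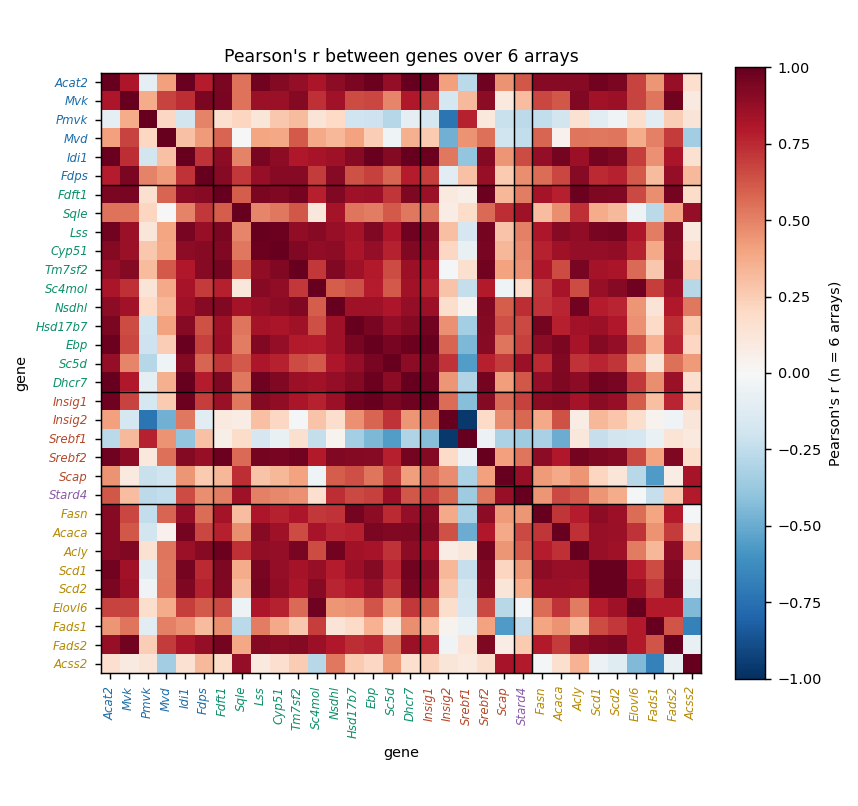
Pearson's r over the 6 arrays for each pair of the 32 genes, in the same order on both axes and grouped by branch, from blue (-1) to red (1). Most pairs of late sterol enzymes are dark red, mean r 0.796, while the rows of Pmvk, Mvd, Sqle, Insig2, Srebf1, Scap and Acss2 hold many paler or blue cells. These rows also hold high values, such as 0.880 for Acss2 with Sqle and 0.850 for Sqle with Stard4.

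The branch means ran closely together. The late sterol mean was 9.69, 9.60, 9.72, 9.71, 9.89 and 9.98 in replicates 2, 4, 5, 6, 7 and 8, and the fatty acid mean was 10.55, 10.49, 10.53, 10.59, 10.68 and 10.74. Both were lowest in replicate 4 and highest in replicates 7 and 8. The mevalonate mean had an r of 0.975 with the late sterol mean (rho 0.943) and of 0.975 with the fatty acid mean (rho 0.943), and the late sterol and fatty acid means had an r of 0.975 (rho 0.829). Replicates 7 and 8 lay farthest from the median of these means. Without them the r was 0.941, 0.927 and 0.748, in that order, so the link of late sterol with fatty acid enzymes rested more on those arrays than the others did. Without replicate 8 alone the values were 0.987, 0.983 and 0.946. No p is attached to these means, since they are scores over chosen genes.

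Set against the branch means, Srebf2 came closest of the regulators. Its r was 0.982 with the mevalonate, 0.981 with the late sterol and 0.969 with the fatty acid mean, and without replicates 7 and 8 these were 0.885, 0.864 and 0.753. Insig1 had an r of 0.870, 0.948 and 0.928 with the same means, and without those 2 arrays 0.540, 0.629 and 0.315. Srebf1, in contrast, had 0.033, -0.14 and -0.17. That depended on 1 array, since without replicate 8 its r with the 3 means was 0.826, 0.836 and 0.737. Insig2 changed in the other direction, from 0.118, 0.3005 and 0.308 over all arrays to -0.90, -0.89 and -0.83 without replicate 8. The r of Scap was 0.305, 0.480 and 0.304, and that of Stard4 was 0.497, 0.647 and 0.531, or 0.034, 0.135 and -0.13 without replicate 8. In all, 35 such relations between means or single genes were computed.

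**Figure D4:**
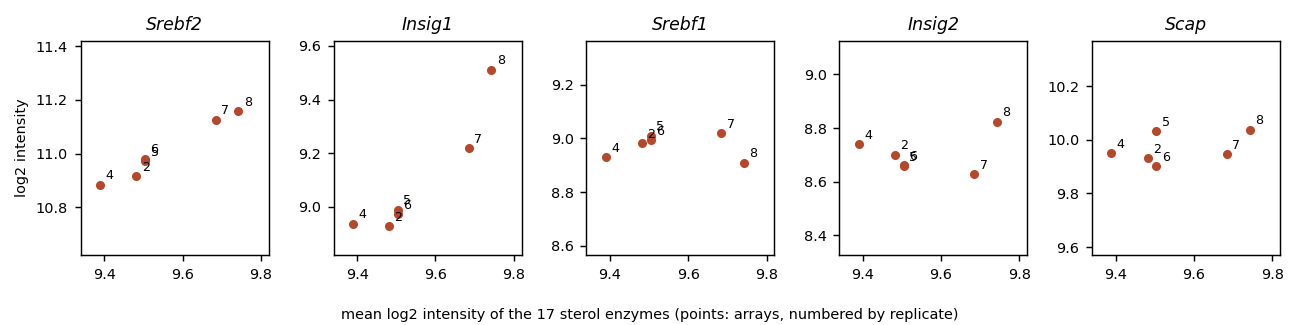
Log2 intensity of the 5 regulators (vertical axes, each spanning the same width) against the mean log2 intensity of the 17 sterol enzymes, 1 point for each array, numbered by replicate. Srebf2 and Insig1 rise with the mean, while for Srebf1 and Insig2 replicate 8 falls away from the line of the other 5 arrays.

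A single sterol mean was then formed over the 17 mevalonate and late sterol enzymes, and each enzyme was set against the mean of the other 16. The mean itself ran from 9.39 in replicate 4 to 9.74 in replicate 8, with 9.68 in replicate 7 and 9.48 to 9.50 in the other 3 arrays, a 1.28-fold range. Of the 32 genes, 21 had an r of at least 0.8 with it, against 4.35% of the genes above background, and 19 did without replicate 8, against 6.36%. The 21 were 4 of 6 mevalonate, 9 of 11 late sterol and 6 of 9 fatty acid enzymes, Insig1 and Srebf2. The fatty acid enzymes and regulators take no part in the mean, and of them Srebf2 (0.987), Acly (0.960), Scd1 (0.930), Insig1 (0.928), Scd2 (0.919) and Fads2 (0.917) came closest. The median r was 0.88 for the 32 genes and -0.06 for all genes above background. The 11 genes under 0.8 were Sc4mol (0.782), Elovl6 (0.676), Stard4 (0.602), Sqle (0.586), Scap (0.426), Mvd (0.410), Fads1 (0.39), Acss2 (0.248), Insig2 (0.243), Pmvk (0.096) and Srebf1 (-0.08). Several of these values rested on replicate 8. Without it Pmvk (0.822) and Srebf1 (0.835) were past 0.8, Insig2 turned to -0.89, Scap fell to -0.02, Stard4 to 0.099 and Acss2 to 0.074. In the other direction, Hsd17b7 (0.748), Acaca (0.729), Sc5d (0.727) and Fasn (0.667) were under 0.8 without that array.

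**Figure D5:**
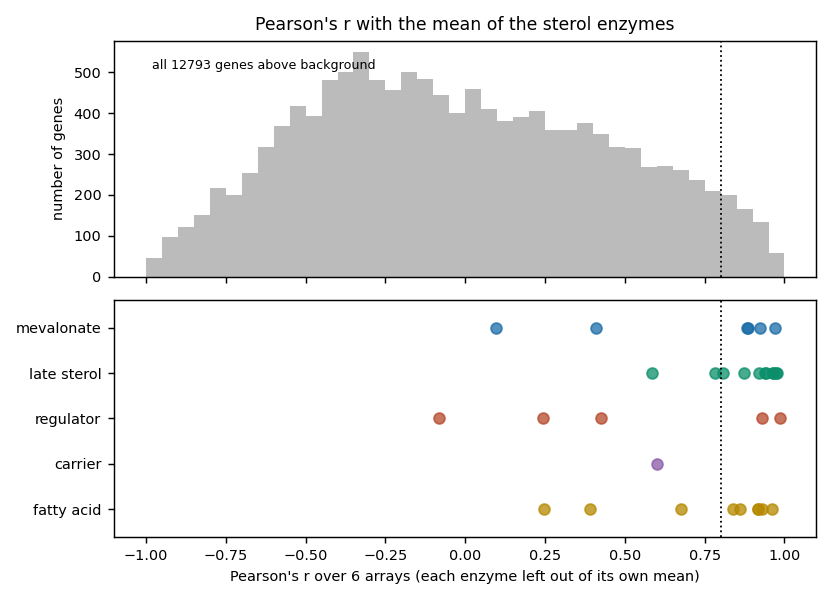
Pearson's r over 6 arrays with the mean of the sterol enzymes, as a histogram for all 12793 genes above background (top) and as points for the 32 genes by branch (bottom), with the limit of 0.8 dotted. 21 of the 32 genes lie to the right of the limit, where 4.35% of all genes lie.

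Insig1, as a single SREBP target outside the enzyme branches, allowed a test of each gene. Its r with each of 12792 genes above background was tested with a two-sided exact permutation test over the 720 pairings of the arrays, with Benjamini-Hochberg adjustment over all of them. Of the 31 other genes here, 17 had an unadjusted exact p under 0.05, all with a positive r, against 4.56% of all genes. None passed after adjustment, nor did any other gene, and the lowest adjusted p was 0.628 with the exact test. With 6 arrays the smallest p is 0.00139, so that an adjusted p under 0.05 could only have been reached had very many genes shared it. The highest r was that of Ebp, 0.998 (exact p = 0.00556), followed by Idi1 at 0.979 (exact p = 0.0125), Acat2 at 0.976 (exact p = 0.00694) and Dhcr7 at 0.974 (exact p = 0.0111). Hsd17b7, at an r of 0.962 and a rho of 1, had the smallest exact p, 0.00139. Among the others, Srebf2 had an r of 0.920 (exact p = 0.00556) and Fasn of 0.904 (exact p = 0.00417). Without replicates 7 and 8, the arrays farthest from the median of Insig1, many of these relations were much weaker over the remaining 4 arrays. Hsd17b7 (0.921), Tm7sf2 (0.916), Srebf2 (0.859) and Ebp (0.773) kept the highest values, while the r was 0.678 for Acat2, 0.418 for Dhcr7, 0.279 for Idi1, 0.072 for Sc5d, -0.02 for Lss, -0.0051 for Cyp51 and -0.60 for Acaca. Fdps, the mevalonate enzyme with the second widest spread, had an r of 0.693 (exact p = 0.149). By rank 8 of the 31 genes had an exact p under 0.05, against 1.63% of all genes. By r without replicate 8, 6 of the 31 genes did, against 2.1% of all genes.

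A small group of members shared another order of the arrays. Acss2 measured 9.04, 8.83, 9.26, 8.78, 8.92 and 9.09 in replicates 2, 4, 5, 6, 7 and 8, and Sqle 10.35, 10.08, 10.52, 10.21, 10.36 and 10.49. Both were highest in replicate 5 with replicate 8 next, and Stard4 had the same pair of arrays on top. So did the regulator Scap, at 10.03 in replicate 5 and 10.04 in replicate 8, so this trait is not confined to the group. The r was 0.880 between Acss2 and Sqle, 0.794 between Acss2 and Stard4 and 0.850 between Sqle and Stard4, and without replicate 8 it was 0.879, 0.985 and 0.911. Acss2, Sqle and Stard4 were set together after their values had been seen, so the values are a description of these arrays.

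Among the other genes of sterol and isoprenoid synthesis, Lbr, a lamin receptor with sterol reductase activity that Tm7sf2 shares, had an SD of 0.344 and an r of 0.056 with the sterol mean. It measured 10.01, 9.51, 10.18, 9.38, 9.43 and 9.95, and was high in replicates 2, 5 and 8, as Acss2 was (r = 0.935 between them). Ggps1, Dhdds and Pdss1, which serve other isoprenoids, stayed under 0.8. Of 14 other genes of fatty acid synthesis and its supply, 12 were above background. Fads3 (0.938) and Tecr (0.927), a reductase of fatty acid elongation, reached 0.8, 2 of these 12, against 4.35% of all genes above background. Mid1ip1, a regulator of acetyl-CoA carboxylase, had an r of -0.88. Of 13 genes of SREBP processing, sterol sensing and the LXR receptors, all 13 were above background and 1 reached 0.8, Nr1h2 (0.882). This 1 of 13 is near the share of all genes and is not read as a result about the list. Abca1, a cholesterol exporter of the LXR programme, had an r of -0.94 and measured 8.05, 8.22, 8.09, 8.16, 7.94 and 7.90, highest in replicate 4 and lowest in replicate 8, the reverse of the enzymes. Neither of these last lists held a gene with an SD over 0.2.

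Several members have near copies whose probes could share signal, and the methods name no step that separates them. Acat3 had an r of 0.952 with Acat2, Scd3 one of 0.922 with Scd1, Scd4 one of 0.834 with Scd1, and Fads3 one of 0.871 with Fads2. Without replicates 7 and 8 these values were 0.240, 0.859, 0.351 and 0.608, in that order. Scd1 and Scd2, near copies among the members, had an r of 0.993, and 0.982 without those arrays. An r does not measure shared signal, since many genes that are no copies shared this order of the arrays. How far the values of Acat2, Scd1, Scd2 and Fads2 hold signal of their copies was not tested.

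Of 3964 genes above background with an SD of at least 0.1 outside the 32, the 10 closest to the sterol mean had an r from 0.963 to 0.995. Among them were Slc5a7, Kcnn3, Ids, Hsp90b1, Sorbs2, Serf1, Mtap1a, Cbln2 and Pik3r3. Slc5a7, the choline transporter of cholinergic neurons, measured 8.86, 8.70, 8.95, 8.91, 9.21 and 9.30, and Hsp90b1, a chaperone of the endoplasmic reticulum, ran from 11.26 to 11.54. These genes were lowest in replicate 4 and highest in replicate 8. At the other end, a choice made after the values were seen, Slc6a9 (-0.99), Arhgef3 (-0.99) and the cystine transporter Slc7a11 (-0.98) were highest in replicate 4 and lowest in replicate 8.

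Cell type markers moved with the sterol enzymes in part. The mean of the 7 motor neuron markers lay between 9.23 in replicate 4 and 9.46 in replicate 8, and its r with the sterol mean was 0.728, or 0.424 without replicate 8. Isl1 (0.951) and Slc5a7 (0.995) reached 0.8 and the other 5 did not, against 4.35% of the genes above background. The 7 proliferation genes spanned only 10.50 to 10.57 in their mean, with an r of 0.740, or 0.887 without replicate 8. Of them 2 of 7 reached 0.8 (Mki67 and Bub1), against the same 4.35%. The 4 floor plate markers spanned 10.96 to 11.05 with an r of 0.648. For 4 of 5 progenitor markers above background the r was -0.36, and for Nanog, the only 1 of 4 pluripotency genes above background, -0.34. For the glial markers, of which 5 of 7 were above background and Aqp4 and Mog were not, the r was -0.41 over all arrays and 0.928 without replicate 8. For the 2 of 7 endoderm and liver markers above background it was -0.41, and 0.793 without replicate 8, in which their mean was 7.97 against 8.22 to 8.38 elsewhere. Gfap (7.55), Aldh1l1 (7.81) and Sox10 (7.93) of the glial and Gata4 (7.85) of the endoderm markers lay close to the background of 7.47. Gfap, Sox10 and Gata4 were lowest in replicate 8, as was the brighter Apoa1 (8.67), and that array had the lowest median intensity. The r of these 2 lists is therefore uncertain, and the part of signal near background in it was not tested. The part of all these cell types in the shared variation of the lipid genes was not tested either.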

How the data were processed

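Embryoid bodies of 1 group were measured on 6 Affymetrix mouse exon arrays. Each deposited value is the linear intensity of a gene on an array. According to the study's methods, the authors made these intensities by Robust Multi-array Averaging in Aroma Affymetrix and averaged the exons of a gene by release 33 of the array annotation. The submitters' processing notes name Affymetrix Expression Console and RMA, with no version. The genome build, the arrays normalized together with these 6 and whether the study's screen for outlying arrays was applied to them are not given in the sources used here. The study's later correction and its log2 ratios to a model of control arrays are not part of these values. The table held 0 columns of other samples.

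Intensities were taken to log2 with no pseudocount and no further normalization. A gene was above background when its mean passed the 95th percentile of 1032 olfactory receptor genes. Altered gene names were restored and matched to RefSeq symbols and synonyms, by which Msmo1 was found as Sc4mol. Spread is the SD over arrays, and covariation is Pearson's r, with Spearman's rho beside it for means and for Insig1. Each gene's relation to Insig1 was tested by exact permutation over 720 pairings, with Benjamini-Hochberg adjustment over 12792 genes. Arrays carry no read depth, so their number limits the precision. All members are accounted for, with values on each array for those with an SD over 0.2, the regulators and Stard4. Further genes come from pathway and marker lists, and the 10 genes most like the sterol mean were taken from those with an SD of at least 0.1. A few genes that these rules name are not reported here. The members and the lists were chosen with earlier results of these data known, and near copies and the group of Acss2, Sqle and Stard4 after the values were seen. Alternatives were median centring, quantile normalization, a loess correction, a background at the 99th percentile, no filter on low values, Spearman's rho, Srebf2 in place of Insig1, leaving out each replicate, and leaving out Sqle, Acss2 or replicates 7 and 8, the last 3 chosen after seeing the data. Python 3.11.15, NumPy 2.4.6, pandas 2.3.3, SciPy 1.17.1, statsmodels 0.14.6 and Matplotlib 3.10.9 were used, and the correlation and permutation steps were tested on simulated data.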

Additional observations from a re-analysis of the deposited data

Results flagged for a closer look

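Sc5d, the desaturase of late sterol synthesis, had a replicate far from the others. Its log2 intensity was 10.01 in replicate 8, and the next highest value was 9.84 in replicate 7. This gap was 0.703 of the whole range of the 6 arrays, above the 95% critical value of Dixon's test for 6 samples. In all, 35 sets of values (the members and the branch means) were examined in this way, of which 1 was so marked, and chance marks about 1.75 among as many. Replicate 8 is also the array with the lowest average r with the others, and the part of that array in this value was not tested further. With replicate 8 left out, the r of Sc5d with the sterol mean was 0.727 in place of 0.809.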

How the results depend on the processing

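Of 112 alternative values of 9 results, 0 reversed and 13 moved, by over 1.5 times for a count or by more than the jackknife error over arrays for an r. That error is computed from the values with 1 replicate left out, so such a value of an r can hardly be called moved. All 32 genes were above background, so dropping the filter on low values could change none of the results. The tally is therefore no measure of how far the results depend on single arrays. The jackknife error was as wide as 0.348 for the mean pairwise r of the mevalonate enzymes, 0.505, which ranged from 0.260 without replicate 7 to 0.777 without replicate 8 and is not counted as moved. The count of members with an SD over 0.2, 7 of 32, ranged from 2 to 8 when 1 replicate was left out, with 2 without replicate 8 and 4 without replicate 4. The count related to Insig1 at an unadjusted exact p under 0.05, 17 of 31, ranged from 6 to 13, with 6 without replicate 8 and 9 without replicate 7, and with fewer arrays fewer pairings exist. The count with an r of at least 0.8 with the sterol mean, 21 of 32, ranged from 19 to 24 in the same way and was 15 by Spearman's rho. For each of these counts the share of all genes was computed only over all arrays and without replicate 8, and for the last of them not by rho. The counts under other alternatives are therefore not read as results about the members. The mean pairwise r of the fatty acid enzymes, 0.555, was 0.745 without Acss2. The r of the mevalonate and late sterol means was 0.943 as Spearman's rho and 0.941 without replicates 7 and 8. The r of the mevalonate and fatty acid means was 0.990 after loess correction, 0.988 with the background at the 99th percentile, 0.943 as rho and 0.927 without replicates 7 and 8. The r of the late sterol and fatty acid means was 0.829 as rho and 0.748 without replicates 7 and 8. The causes of these shifts were not tested beyond the construction of each alternative. No paired analysis was possible because there is 1 group. With 6 arrays, no culture or array batch in the labels and no control arrays analysed here, relations within batches and a response to the blood fluid could not be given.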
